A study of Mus musculus with 16 samples.

Results

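The 10 genes described here mark hepatic stellate cells or encode matrix proteins other than collagen: Lrat, Reln, Des, Pdgfrb, Acta2, Hgf, Dcn, Dpt, Postn and Sparc. They were chosen by name, with earlier results of these data known, and each was read from the array row annotated with that single symbol. All 10 had 1 such row, among 22180 genes with a row of 1 symbol, and all 10 belonged to the 13555 genes that passed the filter on low values and were tested. A gene passed when its value lay above the array's median in at least 4 of the 16 arrays. Dpt did so on 15 arrays and the other 9 genes on 16.

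Gene expression was measured with Affymetrix arrays in liver of C57BL/6J mice killed at 18 months. The 4 mice labelled MYC+/+, REG3A-/- (here MYC mice) carried the WHC-MYC transgene, which expresses c-MYC in the liver under woodchuck hepatitis virus control. The other 4 mice (MYC+/+, REG3A+/+, here MYC/REG3A mice) carried the REG3A transgene in addition, and the labels do not name the promoter that drives it. REG3A is a secreted C-type lectin. Each mouse gave 1 tumour and 1 piece of dissected non-tumour liver, so there were 4 groups of 4 arrays and n is 4 mice per genotype throughout. Every group carried the MYC transgene, so non-tumour liver here is liver of tumour-bearing MYC mice and no liver without the transgene was compared. The labels number the mice within a genotype, and which mice shared a litter, cage or array run is not known.

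Stellate cells lie between the sinusoidal endothelium and the hepatocytes. In healthy liver they store vitamin A as retinyl esters, which the enzyme encoded by Lrat makes, and they secrete reelin (Reln) and hepatocyte growth factor (Hgf). On injury they lose their vitamin A and become myofibroblasts, which express smooth muscle actin (Acta2), respond to PDGF through the receptor encoded by Pdgfrb, and lay down matrix. Desmin (Des) is an intermediate filament protein that marks stellate cells in rodents and is also found in muscle. Decorin (Dcn), dermatopontin (Dpt), periostin (Postn) and SPARC (Sparc) are secreted matrix proteins. All values below are log2 values, a difference of 1 is a change of 2-fold, and levels of different genes were not compared because array probes differ in brightness.

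Promoter sequences are shown for 4 genes that moved in different ways in tumours: Reln, Lrat and Hgf, which fell in tumours of both genotypes, and Acta2, which did not fall in any mouse. The 150 bases before the RefSeq transcript start (build GRCm38.p6) are given 5′ to 3′ on the strand of the gene, with matches to the searched motifs in capitals.
Reln, chr5:22344706-22344855, minus strand: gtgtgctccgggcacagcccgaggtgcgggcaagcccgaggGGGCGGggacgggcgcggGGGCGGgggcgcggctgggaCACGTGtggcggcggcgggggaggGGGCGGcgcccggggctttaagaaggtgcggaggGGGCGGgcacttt
Lrat, chr3:82903975-82904124, minus strand: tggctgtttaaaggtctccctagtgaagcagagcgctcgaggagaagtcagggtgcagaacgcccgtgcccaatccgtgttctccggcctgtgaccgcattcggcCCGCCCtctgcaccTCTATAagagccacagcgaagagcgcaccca
Hgf, chr5:16553345-16553494, plus strand: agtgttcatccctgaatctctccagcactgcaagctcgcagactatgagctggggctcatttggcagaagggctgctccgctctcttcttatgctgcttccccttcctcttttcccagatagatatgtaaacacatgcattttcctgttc
Acta2, chr19:34255374-34255523, minus strand: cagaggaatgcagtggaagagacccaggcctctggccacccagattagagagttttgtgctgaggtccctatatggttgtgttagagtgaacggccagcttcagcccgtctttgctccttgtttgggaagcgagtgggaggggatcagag
RefSeq promoter windows of 300 bases (250 before the start and 50 after it) were used for 8 of the 10 genes, in 10 windows. Those of Dcn and Pdgfrb were not used here. Both strands were searched for the E-box CACGTG, the letters MYC and MAX bind, for the GC box GGGCGG, for the TATA-like letters TATANA and for the CArG box, which serum response factor binds. The Reln window held CACGTG with its first base at position -71 from the start, and none of the other 9 windows held these letters, which occur in 7.15% of the 32851 RefSeq windows of the same length. GGGCGG (35.7% of all windows) was found in the Reln window 6 times, in that of Lrat at -45 and 6, and in that of Des at -87 and -69. TATANA (24.7% of all windows) was found at -31 in Lrat and at 9 in Acta2, and also in windows of Dpt and Postn. The CArG box was searched in its strict form only, CC, then 6 bases that are each A or T, then GG. No member window held that form (1.63% of all windows). The printed Acta2 stretch held ccctatatgg and ccttgtttgg, which each differ from it by a single base. Such near matches were not searched for or counted. The bases G and C made up 80.7% of the Reln window, 60.7% of the Lrat window, 51.3% of the first Hgf window and 54.7% of the Acta2 window, against a median of 52.7% over all windows. Such matches describe letters in the reference genome and say nothing about binding in these samples.

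In tumours of MYC mice, 7 of the 10 genes fell relative to non-tumour liver of the same mice and none rose, with limma and Benjamini-Hochberg adjustment over all tested genes at a threshold of 0.05. Among all tested genes 15.8% fell and 17.4% rose in that comparison. Those that fell were Reln, Hgf, Dpt, Dcn, Lrat, Des and Postn, while Pdgfrb, Sparc and Acta2 did not pass the test. In MYC/REG3A mice 4 of the 10 fell, Lrat, Hgf, Reln and Dcn, and none rose, where 4.88% of all tested genes fell and 7.58% rose. The median change over the 10 genes was -1.21 in MYC mice and -0.43 in MYC/REG3A mice, beside medians of -0.03 and -0.02 over all tested genes. Since the 10 genes were chosen with earlier results known, these contrasts with all tested genes are descriptions and no test of the set.

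**Figure D1:**
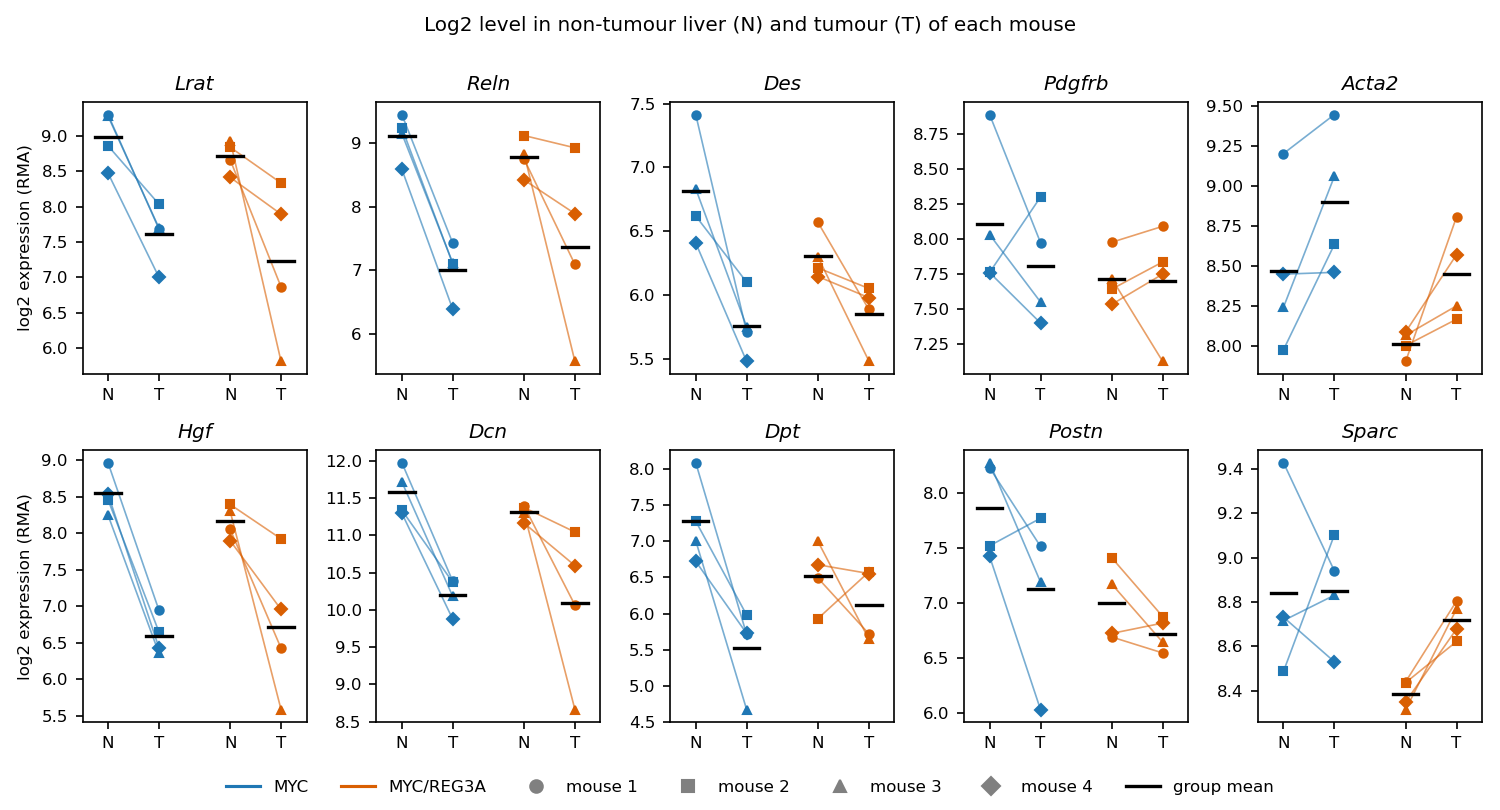
Log2 RMA level (vertical axis, its range set for each gene) of the 10 genes in non-tumour liver (N) and tumour (T). Symbols are the 4 mice of a genotype, thin lines join the samples of 1 mouse and black bars are group means; Lrat, Reln, Hgf and Dcn are lower in the tumour of all 8 mice, and Acta2 is higher in the tumour of all 8.

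Single arrays stood apart. The non-tumour liver of MYC mouse 1 had the highest value of its group for 9 of the 10 genes, all but Postn. The tumour of MYC/REG3A mouse 2 was the highest of its group for 7 genes, and that of MYC/REG3A mouse 3 was the lowest for 7. MYC mouse 4 was the lowest of its group for 7 genes in non-tumour liver and for 8 in tumours. Across all tested genes, the SD of the change from non-tumour liver to tumour was 0.34 in MYC/REG3A mouse 2 and 0.43 in mouse 4, and 0.62 to 0.73 in the other 6 mice.

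Among the stellate cell genes, Lrat, the retinol esterifying enzyme, fell in both genotypes. In MYC mice 1 to 4 it stood at 9.30, 8.86, 9.28 and 8.47 in non-tumour liver and at 7.69, 8.03, 7.70 and 7.002 in the tumours. In MYC/REG3A mice 1 to 4 it stood at 8.66, 8.84, 8.93 and 8.41 in non-tumour liver and at 6.86, 8.33, 5.81 and 7.89 in the tumours. Every tumour lay below every non-tumour liver of its genotype. The mean change was -1.37 ± 0.37 (SE, adjusted p = 0.0189 by limma) in MYC mice and -1.49 ± 0.37 (adjusted p = 0.0313) in MYC/REG3A mice, so that tumours had 38.6% and 35.7% of the level of non-tumour liver. The MYC/REG3A tumours were more unequal, with an SD of 1.13 against 0.43 in MYC tumours. The SE of limma pools the spread over all groups and does not describe that of either genotype alone. Without MYC mouse 1, 3 or 4 the fall in MYC mice no longer passed (adjusted p up to 0.0654 over the alternatives), and without MYC/REG3A mouse 1 or 3 that in MYC/REG3A mice did not (up to 0.135). The latter change was -0.94 without MYC/REG3A mouse 3 and -2.46 without mice 2 and 4.

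Reln, the gene of the secreted glycoprotein reelin, had the largest fall of the 10 genes in MYC mice. Its level was 9.45, 9.24, 9.15 and 8.59 in non-tumour liver of MYC mice 1 to 4 and 7.42, 7.10, 7.11 and 6.38 in their tumours. MYC/REG3A mice had 8.75, 9.12, 8.83 and 8.42 in non-tumour liver and 7.09, 8.92, 5.56 and 7.89 in the tumours. The 4 MYC mice changed by nearly the same amount, whereas in MYC/REG3A mice the change ran from -0.19 in mouse 2 to -3.27 in mouse 3, and the tumour of mouse 2 lay within the range of non-tumour liver. The mean change was -2.10 ± 0.39 (SE, adjusted p = 0.00401 by limma), a 4.29-fold fall, in MYC mice, with an SD over mice of 0.09. In MYC/REG3A mice it was -1.41 ± 0.39 (adjusted p = 0.0442) with an SD of 1.39. The call in MYC/REG3A mice was close to the threshold and was lost in 12 of 17 alternative settings, with adjusted p up to 0.163, among them the omission of MYC/REG3A mouse 1, 3 or 4. The change was -0.79 without mouse 3 and -2.46 without mice 2 and 4 together.

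Des fell in MYC mice. It went from 7.41, 6.62, 6.83 and 6.41 in non-tumour liver of mice 1 to 4 to 5.71, 6.10, 5.75 and 5.48 in the tumours, a change of -1.06 ± 0.19 (SE, adjusted p = 0.00306 by limma). MYC/REG3A mice went from 6.57, 6.21, 6.30 and 6.15 to 5.89, 6.05, 5.49 and 5.98, lower in the tumour of 4 of 4 mice, but the change of -0.46 ± 0.19 did not pass (adjusted p = 0.131). The groups did not overlap in either genotype. Another array row that carries Des together with a second symbol was not used.

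Pdgfrb, the receptor through which PDGF drives stellate cell growth and migration, did not pass in either genotype. Its values in MYC mice 1 to 4 were 8.89, 7.76, 8.03 and 7.76 in non-tumour liver and 7.97, 8.30, 7.55 and 7.40 in tumours. The MYC/REG3A mice had 7.97, 7.64, 7.71 and 7.53 in non-tumour liver and 8.09, 7.83, 7.12 and 7.75 in tumours. Tumour and non-tumour values overlapped in both genotypes, and the change was -0.30 ± 0.22 (SE, adjusted p = 0.309 by limma) in MYC mice and -0.02 ± 0.22 (adjusted p = 0.970) in MYC/REG3A mice. In 3 of 4 MYC mice and in 1 of 4 MYC/REG3A mice the value was lower in the tumour. Without MYC mouse 2, whose tumour was higher, the value in MYC mice was -0.58 and passed (adjusted p = 0.0395).

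Acta2, the smooth muscle actin of myofibroblasts and of vessel walls, did not follow Lrat, Reln and Des above. In MYC mice 1 to 4 it stood at 9.20, 7.98, 8.24 and 8.45 in non-tumour liver and at 9.45, 8.64, 9.06 and 8.46 in tumours. In MYC/REG3A mice it stood at 7.90, 8.003, 8.07 and 8.09 in non-tumour liver and at 8.81, 8.17, 8.25 and 8.57 in tumours. The value was higher in the tumour of all 8 mice, by as little as 0.01 in MYC mouse 4. The mean change was 0.43 ± 0.16 (SE) in both genotypes, and neither passed the test (adjusted p = 0.0664 in MYC mice and 0.106 in MYC/REG3A mice by limma). In MYC mice it passed in 2 of 17 alternative settings, without MYC mouse 4 and without MYC/REG3A mouse 1, with adjusted p of 0.0468 to 0.238 over the settings.

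Hgf, the growth factor that acts on hepatocytes through the receptor Met, fell in both genotypes. It stood at 8.97, 8.46, 8.25 and 8.54 in non-tumour liver of MYC mice 1 to 4 and at 6.95, 6.65, 6.36 and 6.43 in their tumours. In the 4 MYC/REG3A mice it stood at 8.06, 8.40, 8.30 and 7.90 in non-tumour liver and at 6.43, 7.92, 5.59 and 6.96 in tumours. All MYC tumours lay more than 1 log2 unit below the lowest MYC non-tumour liver, while the tumour of MYC/REG3A mouse 2 overlapped with non-tumour liver. The mean change was -1.96 ± 0.28 (SE, adjusted p = 0.00146 by limma), a 3.88-fold fall, in MYC mice and -1.44 ± 0.28 (adjusted p = 0.0156), a 2.71-fold fall, in MYC/REG3A mice. The MYC/REG3A call was lost in 1 of 17 settings, without MYC/REG3A mouse 1 (adjusted p = 0.0810), and the change was -2.17 without mice 2 and 4.

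Of the matrix genes, Dcn, a small leucine-rich proteoglycan that binds collagen fibrils and TGF-beta, fell in both genotypes. Its level in MYC mice 1 to 4 was 11.98, 11.34, 11.72 and 11.30 in non-tumour liver and 10.38, 10.37, 10.18 and 9.87 in tumours. MYC/REG3A mice had 11.40, 11.37, 11.31 and 11.17 in non-tumour liver and 10.06, 11.05, 8.66 and 10.59 in tumours. No tumour reached the range of non-tumour liver of its genotype. The change was -1.38 ± 0.31 (SE, adjusted p = 0.00848 by limma) in MYC mice and -1.22 ± 0.31 (adjusted p = 0.0339) in MYC/REG3A mice, which left 38.4% and 42.9% of the non-tumour level. The latter call was lost without MYC/REG3A mouse 1 or 3, without the filter and in a fit of MYC/REG3A arrays alone, with adjusted p up to 0.133. The value itself was -0.74 without mouse 3 and -1.99 without mice 2 and 4.

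Dpt, a small matrix protein that binds decorin, fell in MYC mice. It stood at 8.09, 7.28, 7.01 and 6.72 in non-tumour liver of mice 1 to 4 and at 5.71, 5.98, 4.67 and 5.72 in tumours, of which the value of mouse 3 lay under the array's median. The values of MYC/REG3A mice were 6.49, 5.93, 7.002 and 6.68 in non-tumour liver and 5.72, 6.58, 5.64 and 6.56 in tumours, lower in 3 of 4 mice and 0.65 higher in mouse 2. The change was -1.76 ± 0.32 (SE, adjusted p = 0.00358 by limma) in MYC mice and -0.40 ± 0.32 (adjusted p = 0.437) in MYC/REG3A mice, where the groups overlapped.

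Postn, a matricellular protein of remodelling tissue, went from 8.23, 7.52, 8.27 and 7.42 in non-tumour liver of MYC mice 1 to 4 to 7.51, 7.77, 7.19 and 6.03 in tumours. Mouse 2 had the higher value in its tumour and the groups overlapped. The fall of -0.73 ± 0.23 (SE, adjusted p = 0.0345 by limma) in MYC mice was the least firm of the 7, since it was lost in 8 of 17 settings, with adjusted p of 0.00437 to 0.155, including the omission of MYC mouse 1, 3 or 4. Postn of MYC/REG3A mice went from 6.69, 7.41, 7.17 and 6.72 to 6.54, 6.88, 6.64 and 6.82, a change of -0.28 ± 0.23 (adjusted p = 0.455).

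Sparc, a collagen-binding matricellular protein, stood at 9.43, 8.49, 8.72 and 8.73 in non-tumour liver of MYC mice 1 to 4 and at 8.94, 9.10, 8.83 and 8.53 in tumours, lower in 2 mice and higher in 2. Levels in MYC/REG3A mice were 8.44, 8.44, 8.32 and 8.35 in non-tumour liver and 8.80, 8.62, 8.77 and 8.68 in tumours, higher in 4 of 4 with no overlap. The change was 0.01 ± 0.16 (SE, adjusted p = 0.967 by limma) in MYC mice and 0.33 ± 0.16 (adjusted p = 0.190) in MYC/REG3A mice.

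**Figure D2:**
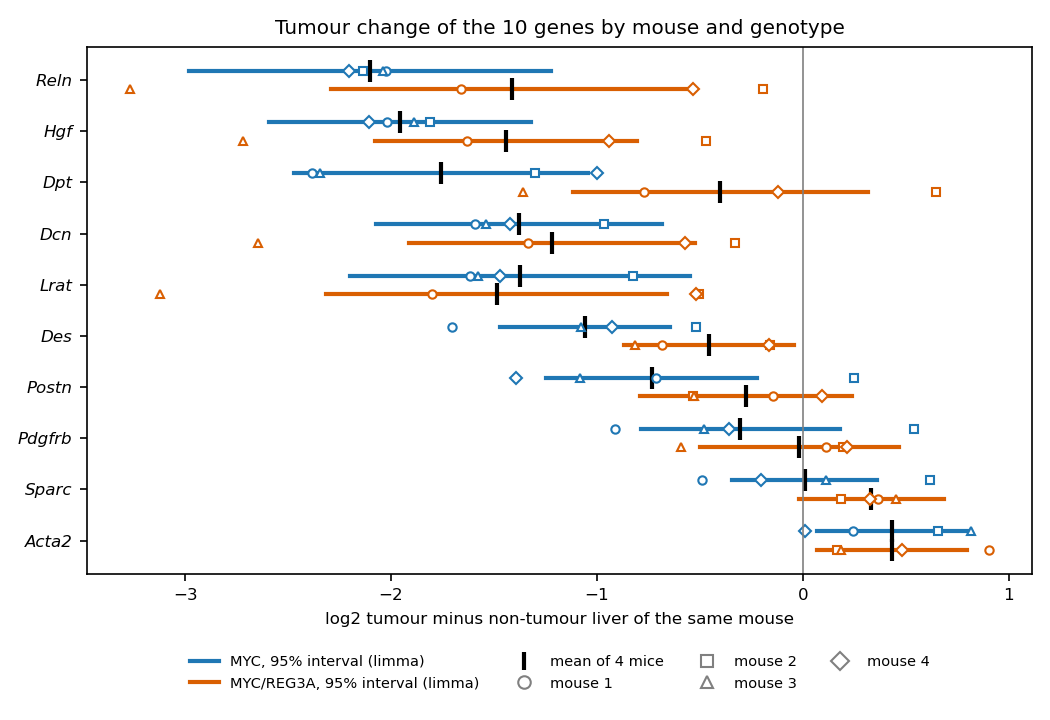
Change from non-tumour liver to tumour (horizontal axis, log2) for each of the 10 genes. Open symbols are single mice, black ticks the means of 4 mice and bars the unadjusted 95% limma intervals; the MYC symbols of Reln lie close together, and MYC/REG3A mouse 3 lies far left and mouse 2 far right for Reln, Hgf and Dcn.

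The change in tumours was then compared between genotypes, a test of the difference of the 2 changes over the same 16 arrays. None of the 10 genes passed (adjusted p = 0.873 to 0.9995 by limma), and 0.00738% of all tested genes, a single gene, did. Of the 10 estimates 9 were above 0, that is, the fall was smaller or the rise larger in MYC/REG3A mice, for Acta2 by only 0.0009. Their median was 0.39, beside -0.005 over all tested genes, whose share above 0 was not counted. Each estimate equals the genotype difference in tumours minus that in non-tumour liver, which had medians of -0.11 and -0.42 over the 10 genes. It is therefore no observation separate from the non-tumour values below. At an unadjusted p under 0.05 stood 2 of the 10, Dpt and Des, and 756 of the 13555 tested genes. The difference for Dpt was 1.36 (95% interval 0.34 to 2.37, unadjusted p = 0.0138) and for Des 0.60 (0.02 to 1.19, unadjusted p = 0.0452). Lrat differed by -0.11, with an interval of -1.28 to 1.05, and Reln by 0.69, from -0.56 to 1.93, both intervals including 0. That for Acta2 was 0.00, from -0.51 to 0.52.

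In non-tumour liver all 10 genes had a lower mean in MYC/REG3A than in MYC mice, with a median difference of -0.42, beside -0.004 over all tested genes, but none passed. The adjusted p-values of limma lay between 0.904 and 0.999, and 0% of the tested genes passed, while 739 of all tested genes and 4 of the 10 had an unadjusted p under 0.05. Those 4 were Postn, at 7.86 ± 0.45 in MYC and 6.997 ± 0.35 in MYC/REG3A mice (SD, n = 4), Sparc, at 8.84 ± 0.41 and 8.39 ± 0.06, Des, at 6.82 ± 0.43 and 6.31 ± 0.19, and Dpt, at 7.28 ± 0.59 and 6.53 ± 0.45. The values of the genotypes did not overlap for Postn and Sparc and overlapped for the other 8 genes. The share of all tested genes without overlap was not counted, so this only describes the values. MYC mouse 1, the highest of its group for 9 genes, also had the highest group value of the mesothelial markers (mean 6.18, the other 3 MYC mice 5.31 to 5.99), the bile duct markers (6.35, the others 5.67 to 5.71) and the portal fibroblast and capsule markers (6.49, the others 6.17 to 6.22). The same array was also the highest of its group for the macrophage and Kupffer (9.60), vascular smooth muscle (6.28) and quiescent stellate cell (7.58) lists. It was not the highest for the sinusoidal endothelial list (9.07, with MYC mouse 4 at 9.49), nor for the hepatocyte, skeletal muscle and adipose lists. The differences of all 10 genes stayed below 0 in each of 16 alternative settings, the omission of MYC mouse 1 among them, and none passed. The part of these lists in the difference between genotypes was not tested.

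In tumours none of the 10 genes passed between genotypes either (adjusted p = 0.541 to 0.938 by limma), nor did any reach an unadjusted p under 0.05 (1437 of all tested genes did), and 0.0221% of all tested genes, 3 in number, passed. The largest difference was that of Dpt, 0.60 higher in MYC/REG3A tumours, while Acta2 differed by -0.45 and Postn by -0.41. The values of the genotypes overlapped for all 10 genes, and the share of all tested genes with overlap was not counted. For Reln, Lrat, Hgf and Dcn the tumours of MYC/REG3A mice spread more widely, with SDs of 1.42, 1.13, 0.98 and 1.03, against 0.44, 0.43, 0.26 and 0.24 in MYC tumours. The difference in spread was not tested.

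Over all 8 mice, Reln, Lrat, Hgf and Dcn varied together. Their changes had SDs of 1.39, 1.25, 0.98 and 1.04 in MYC/REG3A mice and of 0.09, 0.37, 0.13 and 0.28 in MYC mice. In MYC mice 1 to 4 Reln changed by -2.02, -2.14, -2.04 and -2.20, and Lrat by -1.62, -0.82, -1.58 and -1.47. Each r below pools both genotypes, so the wide MYC/REG3A values weigh most in it, and r within a genotype was not computed. Over the changes of the 8 mice, their 6 pairs had Pearson r of 0.85 to 0.99 and Spearman rho of 0.55 to 0.90. Pearson's r was 0.68 to 0.96 when each pair lost the 2 mice farthest from the median of 1 of its genes. That gene was Reln, else Lrat, else Hgf, so the mice left out differed between pairs. For the Reln pairs these were MYC/REG3A mice 2 and 4, and mouse 3, with the lowest change, stayed in. Around the group means, over 16 arrays, r was 0.84 to 0.95. Acta2 had an r of 0.05 to 0.11 with these 4 genes over the changes and of 0.12 to 0.25 around the group means. Without 2 mice per pair, chosen by the changes of Reln, Lrat or Acta2 itself, r ran from -0.07 to 0.56. Around the group means Des and Pdgfrb had an r of 0.91, the highest that either had with another member. Over the changes Des was nearer to Dpt (0.88) than to Pdgfrb (0.85). These correlations describe 8 animals whose arrays also share tissue composition, and the set of 4 was singled out after the values were seen.

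**Figure D3:**
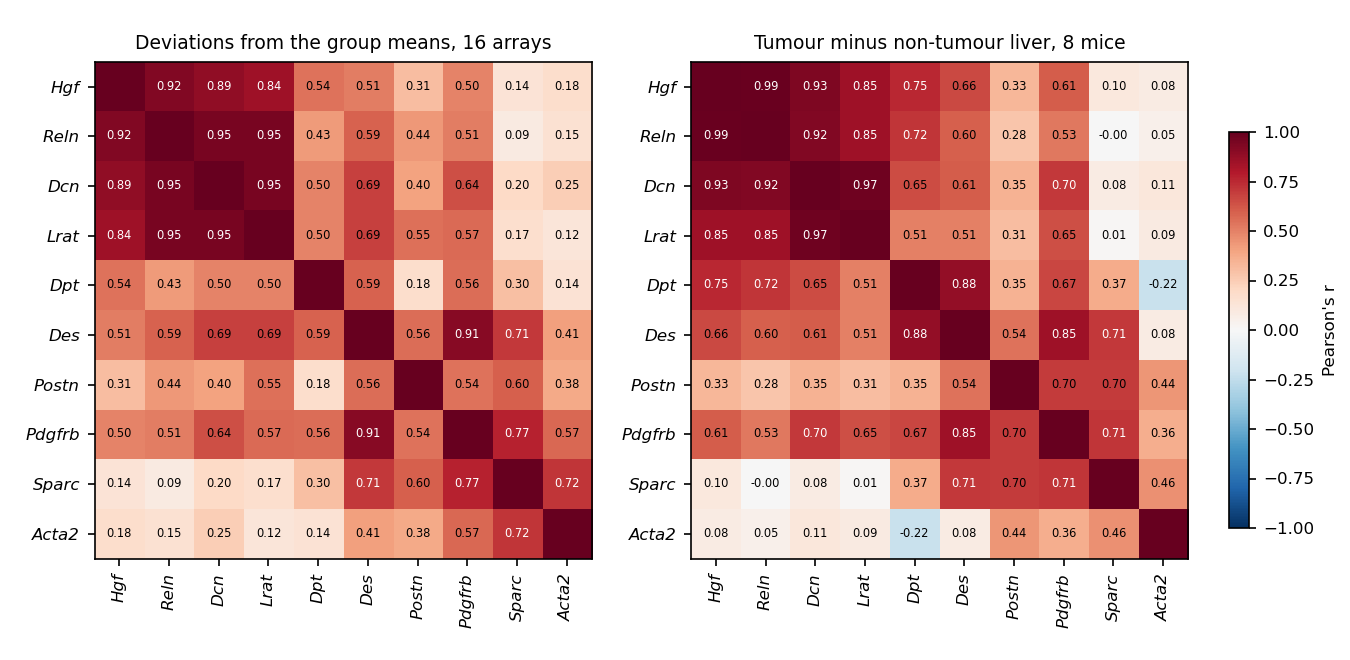
Pearson's r between each pair of the 10 genes, over deviations of the 16 arrays from their group means (left) and over the changes of the 8 mice (right). Colour and number give r; the block of Hgf, Reln, Dcn and Lrat in the upper left is at 0.84 or more in both panels, and Acta2 has low values with these 4.

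By mouse, the median change over the 10 genes was -1.60, -0.67, -1.31 and -1.20 in MYC mice 1 to 4 and -0.73, -0.18, -1.09 and -0.14 in MYC/REG3A mice 1 to 4. MYC/REG3A mice 2 and 4 stood apart with the smallest changes. They were also the mice with the smallest spread of change over all genes, and with both left out the same count of 4 genes passed in MYC/REG3A mice. Without MYC/REG3A mouse 1 the count was 0, and without mouse 3 it was 1. Over all tested genes the count of calls went from 1690 to 281 and 273 in these settings.

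Other genes of the same cell type and pathways were read from lists of 195 genes in all, including marker lists, of which 164 were tested. The lists, too, were chosen with earlier results of these data known. Among all tested genes 15.8% fell and 17.4% rose in MYC tumours, and 4.88% fell and 7.58% rose in MYC/REG3A tumours. A list count near these shares is not particular to the list. Of 12 tested genes of retinoid-storing, quiescent stellate cells, 9 fell and none rose in MYC tumours (median -1.04), and 6 fell in MYC/REG3A tumours (median -0.76). Hhip, a hedgehog-binding inhibitor, fell by 1.93 in MYC and 1.10 in MYC/REG3A tumours, and Colec10, a secreted collectin, stood at -1.998 and -2.05, both past the threshold. Cxcl12, a chemokine, fell by 1.18 and 0.62. Tcf21, a transcription factor of mesenchymal cells, fell by 1.72 in MYC tumours and stood at -0.69 in MYC/REG3A tumours (adjusted p = 0.0694 by limma). The count in MYC/REG3A mice was 1 without mouse 1 and 2 without mouse 3.

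Genes that handle vitamin A moved in both directions. In MYC tumours 4 of 11 fell and 2 rose, and in MYC/REG3A tumours 1 fell and 2 rose. Cyp26b1, which degrades retinoic acid, fell by 1.16 and 0.75 in the 2 genotypes, and Rarb, a retinoic acid receptor, fell by 1.26 in MYC tumours and stood at -0.61 in MYC/REG3A tumours. Cyp26a1, another retinoic acid hydroxylase and one that hepatocytes express, fell by 1.93 in MYC tumours and stood at -0.51 in MYC/REG3A tumours. Rdh11, a retinol dehydrogenase, fell by 0.63 in MYC tumours. Lpl, lipoprotein lipase, rose by 1.74 and 2.09, with another Lpl row at 0.92 and 0.77, and Dgat1, which also makes retinyl esters and triglycerides, rose by 0.75 and 0.81. The count in MYC/REG3A mice went from 3 to 1 without mouse 1 or 3.

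Among 11 contractile and myofibroblast genes, the list closest to Acta2, 1 fell and 1 rose in MYC tumours (median -0.06) and 1 rose in MYC/REG3A tumours (median 0.11). Tpm1, a tropomyosin, rose by 0.56 and 0.44. Palld, an actin-associated protein, fell by 0.56 in MYC tumours and stood at -0.43 in MYC/REG3A tumours. Tpm2 stood at 0.72 and 1.32 and Actg2, a smooth muscle actin, at 0.02 and 0.27, none past the threshold. The single calls of this list were each lost when certain mice were left out, among them MYC mouse 1 or 4 in MYC tumours and each of MYC/REG3A mice 1, 3 and 4 in MYC/REG3A tumours.

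Among the receptors and ligands around the members, Pdgfra, the other PDGF receptor, fell by 1.42 in MYC tumours and stood at -0.91 in MYC/REG3A tumours (adjusted p = 0.0866 by limma), and the ligand Pdgfd fell by 0.52 in MYC tumours. Of the 5 PDGF genes 2 fell in MYC and none passed in MYC/REG3A tumours. Without MYC mouse 1 the count was 1. Of 8 genes of the HGF receptor and of the proteases and inhibitors that control HGF activation, 2 fell in MYC tumours and none passed in MYC/REG3A tumours. These were Spint1, a protease inhibitor (-0.86), and St14, a membrane protease (-0.40), and 1 of them was left without MYC mouse 1, 2 or 4. The receptor Met stood at -0.54 and -0.63, and Hgfac, the activator protease, at -0.32 and -0.67, none past the threshold. Vldlr, a reelin receptor, fell by 0.70 in MYC tumours, a call lost without MYC mouse 1, 2 or 4, and stood at -0.69 in MYC/REG3A tumours, while Lrp8 stood at 0.07 and 0.01.

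Of 16 TGF-beta pathway genes, 3 fell and 1 rose in MYC tumours and 1 fell and 1 rose in MYC/REG3A tumours. The counts that fell were near the shares of all tested genes, 15.8% and 4.88%. Those that rose lay below the shares of 17.4% and 7.58%. Tgfbr3, the co-receptor betaglycan, fell by 1.44 and 1.04, and Smad3, a signal transducer, rose by 0.57 and 0.50. The latent TGF-beta binding proteins Ltbp1 and Ltbp4 fell by 1.05 and 0.66 in MYC tumours and stood at -0.38 and -0.42 in MYC/REG3A tumours. In MYC/REG3A tumours neither call was kept without mouse 1 or 3 (0 genes).

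Dcn has relatives among the small leucine-rich proteoglycans, of which 5 of 6 tested fell in MYC tumours (median -0.74) and 1 fell in MYC/REG3A tumours (median -0.44). Lum fell by 1.56 in MYC tumours and stood at -0.56 in MYC/REG3A tumours. Prelp fell by 1.18 and 0.94, although another Prelp row stood at -0.41 and 0.03. Podn, Bgn and Fmod fell by 0.75, 0.74 and 0.54 in MYC tumours. The MYC count was 3 without MYC mouse 1, and the MYC/REG3A count was 0 without MYC/REG3A mouse 1 or 3.

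Of 24 other non-collagen matrix genes 10 fell and none rose in MYC tumours (median -0.35), and 1 fell and 1 rose in MYC/REG3A tumours (median -0.14). Tgfbi, an integrin-binding matrix protein, fell by 1.52 in MYC tumours and fell by 1.11 in MYC/REG3A tumours. Smoc2, Fbln1 and Emilin1 fell by 0.90, 0.68 and 0.76 in MYC tumours. The gene that rose in MYC/REG3A tumours was Hspg2, the basement membrane proteoglycan perlecan, by 0.46, and both MYC/REG3A calls were lost without mouse 1 or 3. Of 12 genes of matrix processing, 5 fell in MYC tumours and none passed in MYC/REG3A tumours, with Mmp14, a membrane metalloproteinase, at -1.34, Adamtsl2 at -0.90, Timp2 at -0.82, Pcolce at -0.61 and Loxl3 at -0.50 in MYC tumours. Their count was 1 without MYC mouse 1 and 3 without MYC mouse 3.

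Collagens are given for contrast. Of 11 genes, 2 fell in MYC tumours (median -0.04), Col6a3 by 0.55 and Col14a1 by 0.77, and 2 rose in MYC/REG3A tumours (median 0.12). The latter were the basement membrane collagens Col4a1 (0.83) and Col4a2 (0.81), which stood at 0.61 and 0.59 in MYC tumours. Col1a1 stood at 0.16 and 0.65. The MYC/REG3A calls were lost when any one of the 4 MYC/REG3A mice was left out, and the MYC count was 4 without MYC mouse 2 and 1 without MYC mouse 3 or 4. No gene of these pathway lists passed between genotypes.

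**Figure D4:**
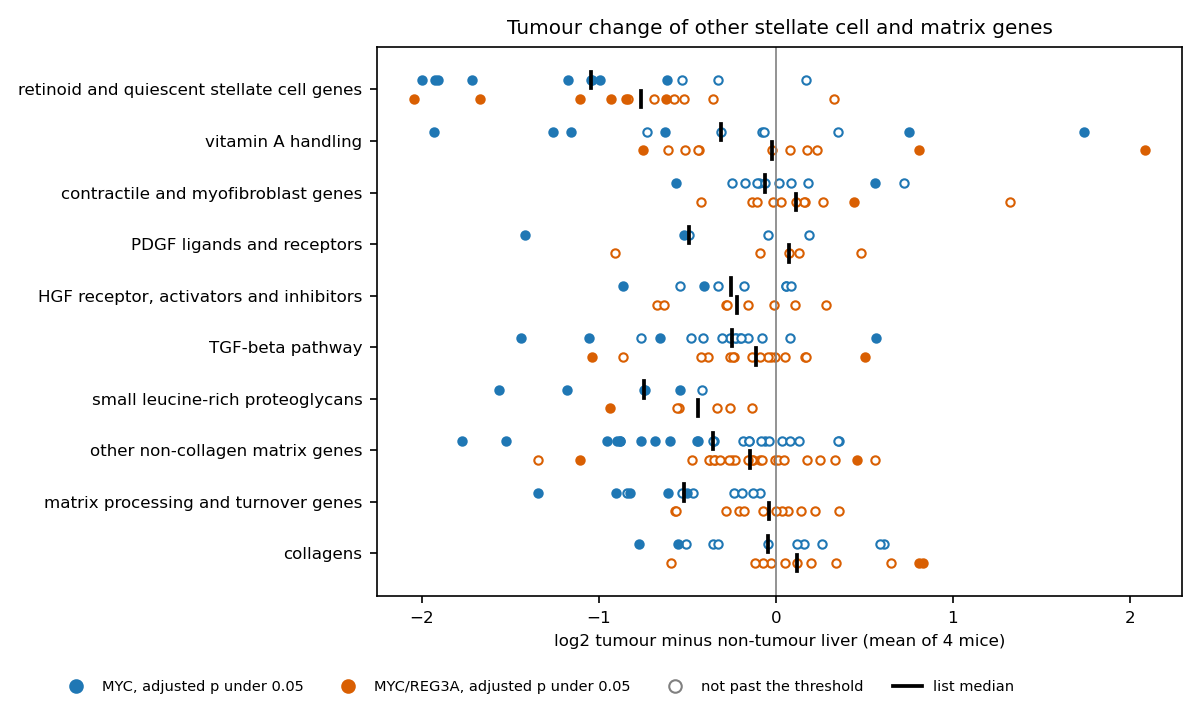
Change from non-tumour liver to tumour (horizontal axis, log2, mean of 4 mice) of the tested genes of 10 lists. Each circle is a gene, filled where its adjusted p was under 0.05, and black bars are list medians; stellate cell genes and small leucine-rich proteoglycans lie mostly left of 0, and contractile genes and collagens lie on both sides.

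Markers of other cell types moved in the same samples. Of 8 sinusoidal endothelial markers 7 fell in MYC tumours (median -1.06) and 5 in MYC/REG3A tumours (median -0.57), with Stab2 at -1.15 and -0.59 and Kdr at -1.01 and -0.49. The other 3 that fell in MYC/REG3A tumours were Clec4g, Fcgr2b and Dnase1l3. Lyve1 went the other way, at 0.09 and 0.43, and did not pass in either genotype. The mean level of the 8 endothelial markers was 8.68 to 9.49 in non-tumour liver and 7.89 to 8.24 in tumours of MYC mice, and 8.47 to 8.88 and 7.68 to 8.64 in MYC/REG3A mice. Of 8 macrophage and Kupffer cell markers 6 fell in MYC tumours (median -1.50) and 7 in MYC/REG3A tumours (median -1.51), with Timd4 at -1.76 and -1.63 and Cd5l at -1.26 and -1.61. Their mean level was 8.02 to 9.60 and 7.21 to 8.24 in MYC mice, and 8.41 to 9.14 and 6.82 to 8.16 in MYC/REG3A mice. The quiescent stellate cell list had a mean level of 7.20 to 7.58 in non-tumour liver and 6.30 to 6.53 in tumours of MYC mice, and of 7.07 to 7.32 and 6.10 to 7.02 in MYC/REG3A mice. Among MYC/REG3A tumours, mouse 2 had the highest mean of the stellate (7.02) and endothelial (8.64) lists, and mice 1 and 3 had the lowest of both (6.12 and 6.10, and 7.68 and 7.70). The part of cell composition in the changes of the 10 genes was not tested. In these bulk samples fewer stellate cells and less RNA per stellate cell cannot be told apart.

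Hepatocyte markers had a mean level of 12.53 to 12.94 in all groups, near the array maximum of 13.55 to 13.68, and none of 6 tested passed in either genotype (medians -0.13 and -0.08), so the labelled tissue had its defining markers. Skeletal muscle markers stayed at 4.74 to 4.97, about the array median of 4.90 to 4.97, and none of 4 tested passed. Of 5 tested vascular smooth muscle markers 1, Mustn1, fell in both genotypes (-1.89 and -1.47), and Smtn stood at 0.15 and 0.35, with another Smtn row at -0.26 and 0.14, so its direction in MYC tumours turned with the row. Of 6 tested markers of portal fibroblasts and the liver capsule, Gsn rose in both genotypes (1.37 and 2.07) and Gas6 fell in MYC tumours (-1.70, and -0.65 in MYC/REG3A tumours). Of 6 mesothelial markers 3 fell in MYC tumours, with Gpm6a at -0.90 and Msln at -0.52, and 2 of 5 bile duct markers, Epcam at -1.15 and Krt19 at -0.45, a gene on both lists. None of either list passed in MYC/REG3A tumours. Of 2 tested adipose markers, Fabp4, also found in endothelium and macrophages, rose by 1.88 and 2.73, and Plin1 stood at -0.01 and 0.11.

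The tested genes whose levels over the 16 arrays were most like each member were named by Pearson's r, as a description, since the arrays share groups and mice. Reln was closest to Bmp5 (0.99), Efemp1 (0.97) and Prelp (0.96). Lrat and Dcn had Prelp and Bmp5 among their 3 closest as well (0.96 to 0.98), with Efemp1 (0.97) for Lrat and Tgfbi (0.98) for Dcn. Hgf was closest to Vipr1 (0.98), Hpse (0.98) and the gene model Gm3893 (0.97). Des was closest to Lamb1 (0.97), Gucy1a1 (0.94) and Rbms3 (0.94), and Dpt to Atp2b4 (0.92), Plxna4 (0.91) and Fam180a (0.91). Pdgfrb was closest to Frzb (0.89), Lama2 (0.87) and Susd2 (0.86), Postn to B3gnt3 (0.87), Cers5 (0.85) and Ccnd2 (0.85), and Sparc to Actg2 (0.91), Emp1 (0.91) and Ano6 (0.88). Acta2 had other neighbours, Abcg1 (0.94), Atad2 (0.91) and Syt11 (0.87).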

How the data were processed

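The deposited values are log2 levels; per the submitters' processing notes, RMA was run in Affymetrix Expression Console 1.4.1. The base of the logarithm was inferred from the values' range, and the settings are not given in the sources used here. The number of arrays limits the precision, and no detection calls were used. The normalisation in RMA equalises the arrays, so each change is relative to the other genes. Of 41345 rows, 23521 carried 1 gene symbol by the platform annotation, 1814 several and 16010 none. The row with the highest mean stood for a gene.

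Tests were 2-sided, with limma 3.58.1 in R 4.3.3 (lmFit, eBayes) over all 16 arrays and adjusted over 13555 genes by Benjamini-Hochberg. Tumour changes and their difference had the mouse as a block, since the labels give both tissues the same mouse number and the design text calls them pairwise. Deviations from the group means correlated within mice at 0.0963 to 0.325. Genotypes were compared as 4 group means without a block. Standard errors pool the spread of all groups. The fit was tested on simulated data. The members and lists were chosen with earlier results of these data known. Named were the members, up to 4 pathway genes per list and 2 markers per marker list of lowest p, all list genes passing between genotypes, and 3 neighbours per member. Exceptions named after their values were seen were Hspg2, Col14a1, Lyve1 and genes whose calls a count of 5 or fewer needed. Promoters came from RefSeq (GRCm38.p6). Alternatives were another filter, row rule, centring, variance model, block or set of arrays, and the omission of mice.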

Additional observations from a re-analysis of the deposited data

Results flagged for a closer look

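The change of Pdgfrb in the tumour of MYC/REG3A mouse 3, -0.591, lay far below those of the other 3 MYC/REG3A mice, with a gap of 0.873 of the group's whole range. This was 1 of 60 groups of 4 values examined, and chance marks about 1 in 20 such groups. The same tumour was the lowest of its group for 7 of the 10 genes.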

How the results depend on the processing

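Of the 10 genes, 7 fell in MYC tumours, and 5 to 8 were called over 17 alternative settings. In MYC/REG3A tumours 4 fell, against 2 with no filter on low values and 1 in a fit of the MYC/REG3A arrays alone, and 0 to 4 with 1 mouse left out. The setting without the filter tests more genes, and the fit of 1 genotype uses fewer arrays. No gene called reversed its sign under any setting. With no replicate block, or with the mouse as a random block, 6 and 3 genes were called in MYC and MYC/REG3A tumours. None of the 10 was called between genotypes, or for the difference of the changes, in any of 16 settings each. Genes that were not called changed sign in 3 of 170 values for MYC tumours, 1 of 170 for MYC/REG3A tumours, 12 of 160 for the difference of the changes, 0 of 160 for non-tumour liver and 10 of 160 for tumours between genotypes. Over all tested genes, calls in MYC tumours went from 4505 to 2975 without MYC mouse 4, and calls between tumours of the genotypes from 3 to 114 without MYC/REG3A mouse 1. Calls between non-tumour livers went from 0 to 22 without MYC mouse 2. How far single genes lay over background is unknown. The p-values set each difference against the spread over these mice only. For tumour changes this is the spread of the paired changes, pooled over both genotypes.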
